A study of Mus musculus with 15 samples.

Results

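The 10 genes studied here, which the transcription factor p53 switches on, were followed through treatment of MC38 tumours: Cdkn1a, Ccng1, Mdm2, Phlda3, Trp53inp1, Bax, Bbc3, Pmaip1, Fas and Eda2r. They were chosen by symbol, are 10 of the 21851 genes listed, and all 10 passed the filter on low values that left 11311 genes to test. The libraries were made from blocks of tumours that the mouse line MC38, a colon adenocarcinoma labelled wild type, formed in syngeneic mice. That label does not speak to p53, and the p53 status of the tumour cells was not tested here. The host strain, age and sex, the doses and the time of collection are not given in the sources used here. The first group received BG136 plus anti-PD-1 antibodies and is called the combination group, the second received anti-PD-1 antibodies alone, and the third received vehicle, all by intravenous injection, with 5 tumours in each group and 1 library per tumour. BG136 is a purified soluble β-glucan, and anti-PD-1 antibodies block an inhibitory receptor of T cells. There was no group given BG136 alone, so in the combination group its effect can be read only on top of anti-PD-1.

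p53 is a transcription factor that is held at a low level by the ubiquitin ligase Mdm2 and accumulates after DNA damage and other stress. It then binds response elements made of a pair of 10-base motifs and raises genes that halt the cell cycle, repair damage, feed back on p53 itself, or prepare the cell to die. Several of these genes also respond to other factors: Cdkn1a and Mdm2, for example, are transcribed to some degree without p53. MC38 blocks hold the tumour cells together with host leukocytes, vessels and stroma, and in such bulk samples fewer cells of a type and less RNA per cell cannot be told apart.

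The expression values were read as FPKM, sequenced fragments counted per kilobase of transcript and relative to all mapped fragments. Their header names no unit, so comparing levels between genes rests on that reading. Library sums ran from 377509 to 424899 FPKM, and the absolute read depth is unknown. The median SD of log2(FPKM + 1) over the tested genes was 0.164 in the combination group, 0.0960 in the anti-PD-1 group and 0.0913 in the vehicle group, so the combination tumours varied most. Within it, replicate 5 lay farthest from its group's median. The cell line is labelled as colon adenocarcinoma, yet of the intestinal epithelial genes Cdx2 was listed at 0 in all 15 libraries and Vil1 at no more than 0.0517 FPKM in any, and 7 epithelial markers summed to between 1.02 and 27.6 FPKM per library. Nothing in the sources says whether the 5 tumours of a group came from separate mice, so p-values measure the spread between these libraries.

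RefSeq promoter windows (GRCm38.p6, the 250 bases before each transcription start) were available for 8 of the 10 genes, and are shown because they carry a motif from which p53 elements are built. The windows of Pmaip1 and Trp53inp1 are not shown. Of the 8 genes, 4 had at least 1 exact match to the 10-base p53 element motif, on either strand, and these 4 sequences follow with the match in capitals, 5′ to 3′ on the gene's strand and ending at the last base before the start. They lie at chr17:29090729-29090978 on the plus strand for Cdkn1a, chr10:117710759-117711008 on the minus strand for Mdm2, chr11:40755287-40755536 on the minus strand for Ccng1, and chr7:45466899-45467148 on the minus strand for Bax.
Cdkn1a: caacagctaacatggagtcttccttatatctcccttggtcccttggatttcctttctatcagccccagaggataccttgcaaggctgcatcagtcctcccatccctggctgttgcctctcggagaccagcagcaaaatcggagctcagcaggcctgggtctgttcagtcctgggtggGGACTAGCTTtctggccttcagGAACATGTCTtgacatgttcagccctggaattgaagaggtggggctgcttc
Mdm2: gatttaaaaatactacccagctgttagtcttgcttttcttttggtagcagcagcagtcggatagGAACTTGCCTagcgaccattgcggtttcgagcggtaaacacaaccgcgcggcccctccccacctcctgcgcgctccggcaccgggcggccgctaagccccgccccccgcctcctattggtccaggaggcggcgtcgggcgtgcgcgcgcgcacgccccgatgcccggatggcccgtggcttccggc
Ccng1: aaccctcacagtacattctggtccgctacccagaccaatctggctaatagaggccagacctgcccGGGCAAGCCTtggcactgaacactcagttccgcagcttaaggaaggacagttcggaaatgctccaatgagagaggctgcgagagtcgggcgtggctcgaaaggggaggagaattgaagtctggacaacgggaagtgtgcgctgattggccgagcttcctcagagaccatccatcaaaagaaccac
Bax: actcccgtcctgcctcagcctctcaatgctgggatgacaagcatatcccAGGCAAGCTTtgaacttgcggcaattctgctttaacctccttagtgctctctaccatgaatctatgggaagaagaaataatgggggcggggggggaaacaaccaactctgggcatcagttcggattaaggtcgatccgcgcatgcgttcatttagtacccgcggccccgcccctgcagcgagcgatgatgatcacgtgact
In Cdkn1a the 2 matches, GGACTAGCTT and GAACATGTCT, began 73 and 51 bases before the more upstream of its annotated starts, with 12 bases between them, and that start lies 2790 bases from the other one. The bases directly after GAACATGTCT, tgacatgttc, miss the motif only at their first base. They are not in capitals because the search took exact matches only. Which of these motifs p53 binds as a pair was not tested. The single matches began 186 bases before the start in Mdm2 (GAACTTGCCT), 185 bases before it in Ccng1 (GGGCAAGCCT) and 201 bases before it in Bax (AGGCAAGCTT). A match of this kind was not rare: 8.20% of 27025 mouse genes had at least 1 in a window. Counted by window, 7.13% of 32851 mouse promoter windows held at least 1, and 0.259% held at least 2. The windows of Bbc3, Phlda3, Fas and Eda2r held no exact match, which says only that these letters are not in these windows.

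Over all 15 tumours the members fell into an upper and a lower range of level. Phlda3 had the highest median, 40.1 FPKM, followed by Cdkn1a at 32.3, Ccng1 at 24.7, Bax at 14.4, Mdm2 at 11.3 and Eda2r at 9.55 FPKM. Bbc3 at 3.91, Fas at 2.53, Trp53inp1 at 2.41 and Pmaip1 at 1.67 FPKM formed the lower range. Most neighbours in this order were separated in at least 12 of the 15 tumours, but Fas was above Trp53inp1 in only 8, so those 2 levels were not distinct. Bbc3, Fas, Trp53inp1 and Pmaip1 are low enough that the 1 FPKM added before the logarithm makes their fold changes smaller.

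The combination group was set against vehicle to ask whether the combined treatment changed this gene set. Of the 10 genes 5 rose and 0 fell, by limma at a Benjamini-Hochberg adjusted p under 0.05. Over all 11311 genes 16.6% rose and 23.9% fell (40.5% in either direction), so calls were common in this comparison. The median log2 change of the 10 genes was 0.17, beside -0.05 over all genes tested. In 4 of the 10 every combination tumour was above every vehicle tumour, as was the case for 9.38% of all genes (14.7% were separated the other way). An unadjusted p under 0.05 was reached by 6 of the 10 and by 49.8% of all genes.

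Cdkn1a encodes p21, the inhibitor of cyclin-dependent kinases through which p53 arrests the cell cycle. It had 37.1, 33.3, 54.3, 36.3 and 46.1 FPKM in the combination tumours, replicates 1 to 5, against 25.9, 24.6, 26.1, 25.8 and 22.8 FPKM in the vehicle tumours. Every combination tumour was above every vehicle tumour, and replicates 3 and 5 were highest. Cdkn1a rose by 0.68 ± 0.12 on the log2 scale (SE, limma adjusted p = 5.66e-04). Ccng1, cyclin G1, an atypical cyclin that recruits a phosphatase to Mdm2, had 24.3, 23.6, 30.3, 25.4 and 32.0 FPKM in the combination tumours and 24.1, 24.4, 23.0, 24.9 and 24.7 FPKM in the vehicle tumours. Combination replicates 3 and 5 were above all vehicle tumours by a wide margin while replicates 1 and 2 lay within their range, and the change of 0.15 ± 0.07 did not pass (limma adjusted p = 0.129). It passed without combination replicate 2 (0.19, adjusted p = 0.0431).

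Mdm2 encodes the ubiquitin ligase that marks p53 for destruction, and is itself a p53 target. It had 13.03, 12.3, 12.3, 12.6 and 11.3 FPKM in the combination tumours and 10.2, 9.55, 9.79, 10.1 and 9.61 FPKM in the vehicle tumours. The groups did not overlap and both were narrow, with a coefficient of variation of 5.09% in the combination group and 3.15% in the vehicle group. Mdm2 rose by 0.29 ± 0.06 (limma adjusted p = 0.00141), and combination replicate 5, among the highest for Cdkn1a, was the lowest of its group for Mdm2. Phlda3, which restrains the kinase Akt, had 36.7, 43.8, 30.5, 50.9 and 34.9 FPKM in the combination tumours and 40.9, 37.1, 40.1, 37.4 and 37.9 FPKM in the vehicle tumours. Combination tumours lay on both sides of the vehicle range, with replicate 4 highest and replicate 3 lowest, and the change was 0.00 ± 0.10 (limma adjusted p = 0.979). Trp53inp1, a stress protein that takes part in p53-dependent death and in autophagy, had 3.13, 2.69, 7.21, 4.37 and 9.51 FPKM in the combination tumours and 1.94, 1.70, 2.12, 2.01 and 2.41 FPKM in the vehicle tumours. The groups did not overlap, but the combination group was the most uneven of any member, with a coefficient of variation of 53.9%. Trp53inp1 rose by 0.96 ± 0.23 (limma adjusted p = 0.00468), and by 0.52 (adjusted p = 0.0101) without combination replicates 3 and 5.

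Among the genes of mitochondrial apoptosis, Bax encodes the protein that permeabilises the outer mitochondrial membrane, while Bbc3 (PUMA) and Pmaip1 (NOXA) encode BH3-only proteins that release it from its inhibitors. Pmaip1 had 2.11, 1.46, 2.48, 2.48 and 3.86 FPKM in the combination tumours and 0.780, 0.940, 1.28, 1.19 and 1.16 FPKM in the vehicle tumours. Again no combination tumour fell within the vehicle range, and Pmaip1 rose by 0.72 ± 0.14 (limma adjusted p = 0.00174). Bax had 15.4, 14.7, 18.4, 13.8 and 16.9 FPKM in the combination tumours and 13.8, 14.4, 13.8, 13.2 and 13.2 FPKM in the vehicle tumours. The groups overlapped at combination replicate 4, and the rise of 0.19 ± 0.07 was the smallest that passed (limma adjusted p = 0.0434). That call ended without vehicle replicate 1, 3, 4 or 5 (adjusted p of 0.0676, 0.0691, 0.0832 and 0.0888) and without combination replicate 1, 3 or 5 (0.0543, 0.116 and 0.0922), and also with no filter on low values (0.0545), with the compared groups alone (0.0658) and with weights per group (0.0666). Bbc3 had 3.93, 4.90, 3.99, 4.48 and 4.11 FPKM in the combination tumours and 3.80, 4.72, 3.26, 4.04 and 3.39 FPKM in the vehicle tumours. The groups overlapped through most of their range, and the change of 0.13 ± 0.08 did not pass (limma adjusted p = 0.195), though it did without vehicle replicate 2 (0.19, adjusted p = 0.0455).

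Neither of the 2 receptor genes passed the test. Fas encodes the receptor of Fas ligand, and Eda2r a receptor of the same family that binds ectodysplasin A2. Fas had 2.44, 1.78, 3.09, 2.91 and 2.78 FPKM in the combination tumours and 2.87, 2.19, 2.50, 3.00 and 2.45 FPKM in the vehicle tumours. The groups overlapped and the change was -0.01 ± 0.10 (limma adjusted p = 0.955). Eda2r had 8.16, 11.4, 7.18, 8.32 and 5.41 FPKM in the combination tumours and 10.7, 7.97, 9.55, 11.1 and 10.5 FPKM in the vehicle tumours. The lowest value of all 15 was combination replicate 5 and the highest combination replicate 2, and the change of -0.29 ± 0.13 did not pass (limma adjusted p = 0.0885). It passed without vehicle replicate 2 (-0.36, adjusted p = 0.0484) and without combination replicate 2 (-0.41, adjusted p = 0.00678).

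**Figure D1:**
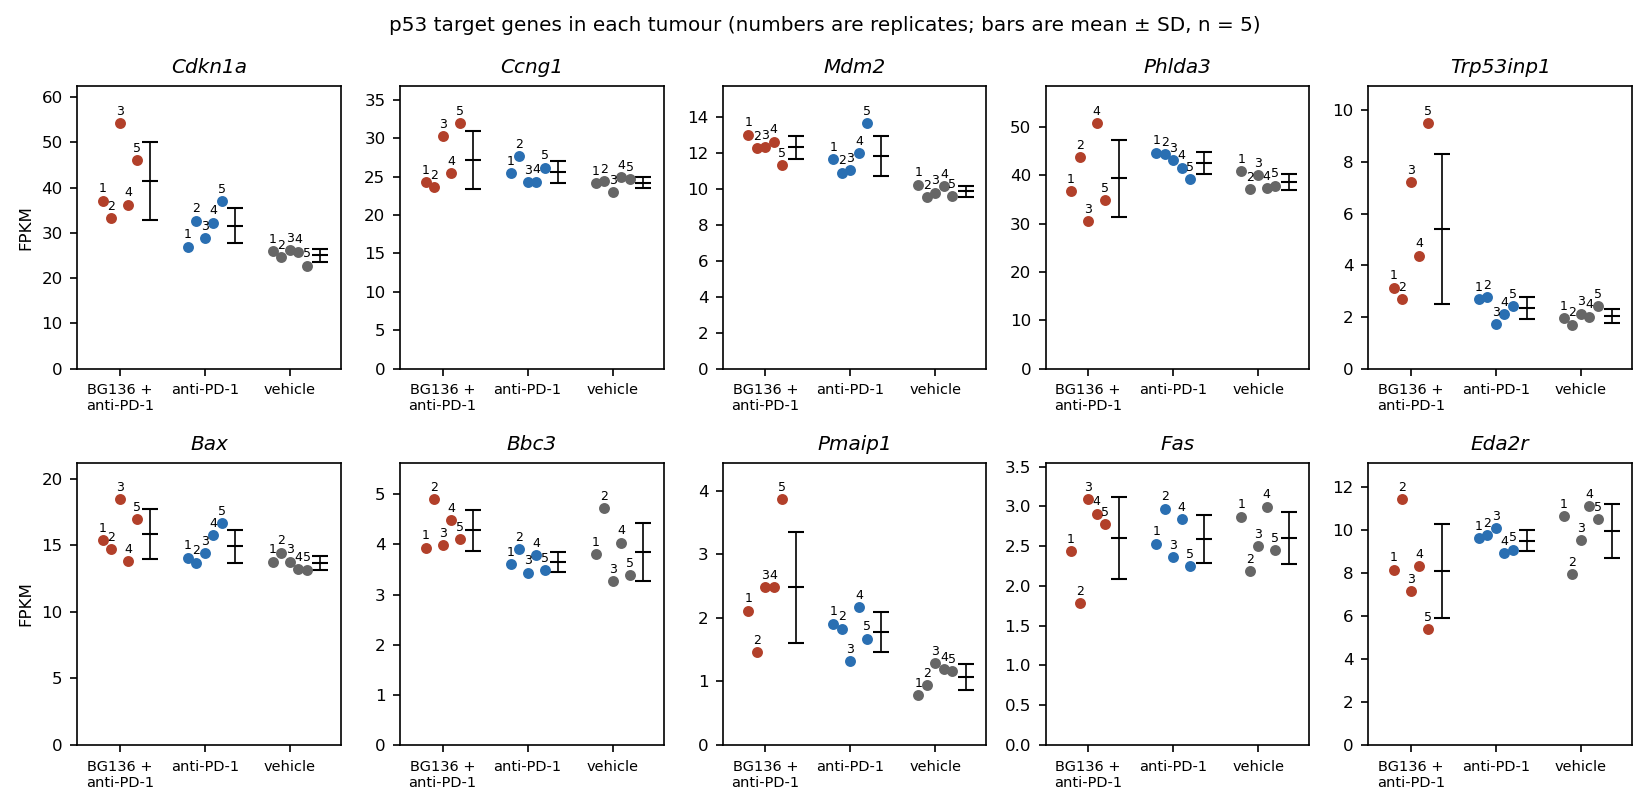
FPKM of the 10 p53 target genes in each tumour, 1 panel per gene, with the combination, anti-PD-1 and vehicle groups from left to right, small numbers naming the replicates and bars giving the mean ± SD (n = 5). The combination and vehicle points are fully separated for Cdkn1a, Mdm2, Trp53inp1 and Pmaip1, and combination replicates 3 and 5 are the 2 highest points for Cdkn1a, Ccng1, Trp53inp1 and Bax.

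Anti-PD-1 alone was set against the same vehicle tumours. Of the 10 genes 1 rose and 0 fell by limma, where 2.21% of all genes rose and 3.34% fell (5.55% in either direction). Mdm2 had 11.7, 10.9, 11.03, 12.0 and 13.7 FPKM in the anti-PD-1 tumours, all above the vehicle tumours given before. It rose by 0.24 ± 0.06 (limma adjusted p = 0.0265). This call ended without vehicle replicate 1, 2, 3 or 5 (adjusted p of 0.0503, 0.0576, 0.0656 and 0.0713) and without anti-PD-1 replicate 1, 4 or 5 (0.0568, 0.0581 and 0.0607).

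Separated from vehicle but not past the adjusted threshold were Cdkn1a and Pmaip1, so that 3 of the 10 genes had non-overlapping groups in the upward direction, beside 7.09% of all genes, and 0 in the downward direction, beside 6.63%. Cdkn1a had 27.0, 32.7, 28.8, 32.3 and 36.9 FPKM in the anti-PD-1 tumours, and its change from vehicle was 0.32 ± 0.12 (limma adjusted p = 0.120). Pmaip1 had 1.91, 1.83, 1.31, 2.17 and 1.67 FPKM, and its change was 0.42 ± 0.14 (limma adjusted p = 0.0997). Both passed when each group's spread was estimated on its own (adjusted p of 0.0160 and 0.0120) and when the anti-PD-1 and vehicle groups were fitted alone (0.0162 and 0.0144). Bax had 14.1, 13.7, 14.4, 15.8 and 16.6 FPKM with anti-PD-1, overlapping vehicle at its lower end, and a change of 0.11 ± 0.07 (limma adjusted p = 0.366). Trp53inp1 stayed in a range of 1.72 to 2.76 FPKM with anti-PD-1, close to the vehicle range, with a change of 0.13 ± 0.23 (limma adjusted p = 0.777). The other 5 members had limma adjusted p-values between 0.453 for Phlda3 and 0.988 for Fas. The median change of the 10 was 0.12, beside 0.01 over all genes.

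The combination was then set against anti-PD-1 alone, the comparison that isolates the addition of BG136. None of the 10 genes passed by limma (0 of 10, with 0.0619% of all genes called, 7 in number and all lower), and 3 of the 10 had an unadjusted p under 0.05, beside 28.2% of all genes. These 3 were Trp53inp1 (0.83 ± 0.23, limma adjusted p = 0.0822), Cdkn1a (0.37 ± 0.12, 0.0946) and Bbc3 (0.18 ± 0.08, 0.148). Bbc3 had 3.61, 3.91, 3.44, 3.78 and 3.49 FPKM with anti-PD-1, all below the combination tumours, a separation that 0.663% of all genes showed in that direction and 3.84% in the other. Mdm2 differed by 0.05 ± 0.06 (limma adjusted p = 0.526), with 12.3 ± 0.628 FPKM in the combination group and 11.9 ± 1.11 FPKM in the anti-PD-1 group (SD, n = 5 each). Pmaip1 differed by 0.30 ± 0.14 (adjusted p = 0.189) and Eda2r by -0.24 ± 0.13 (adjusted p = 0.238). This comparison depended on 1 tumour: without combination replicate 2, 2222 genes passed, beside 7 with all libraries, and among them 4 of the 10 members. These were Trp53inp1 (1.00, limma adjusted p = 0.0153), Cdkn1a (0.44, 0.0241), Eda2r (-0.36, 0.0352) and Pmaip1 (0.41, 0.0384). In every other alternative fit of this comparison none of the members passed.

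**Figure D2:**
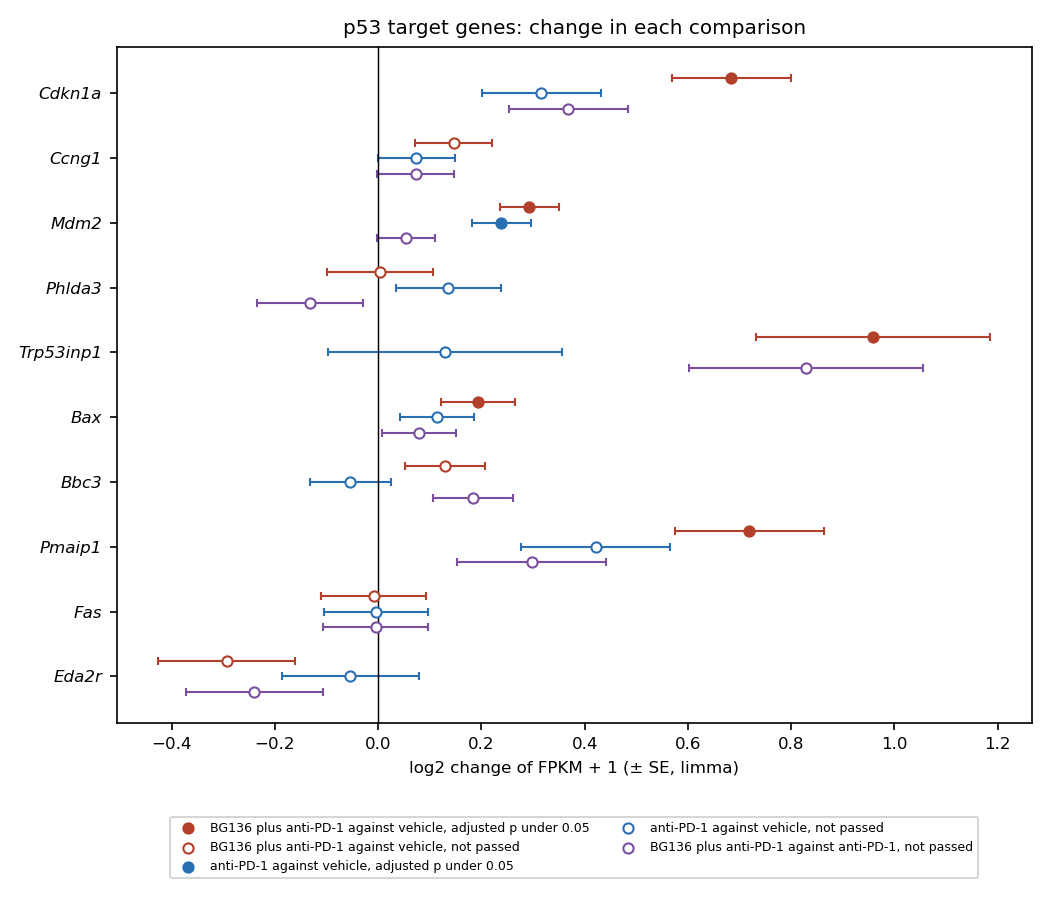
Log2 change of FPKM + 1 for each p53 target gene (horizontal axis, ± SE from limma) in the comparisons of combination with vehicle, anti-PD-1 with vehicle and combination with anti-PD-1, with filled points for an adjusted p under 0.05. Filled points appear for 5 genes in the first comparison, for Mdm2 alone in the second and for none in the third.

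Leukocyte markers moved with these changes. All 4 pan-leukocyte markers, all 5 T cell markers and all 6 macrophage markers rose by limma in the combination group against vehicle. So did 4 of 5 endothelial markers. Over all genes 16.6% rose and 23.9% fell in this comparison. Of 6 fibroblast markers 3 rose and 2 fell, with changes from -1.20 to 1.76 on the log2 scale, and their sum lay between 858 and 1974 FPKM in the combination group and between 1170 and 1376 FPKM in the vehicle group. The part of the fibroblast and endothelial markers in the results was not tested. The 4 pan-leukocyte markers (Ptprc, Coro1a, Cd53 and Laptm5) summed to 328, 233, 515, 285 and 631 FPKM in combination replicates 1 to 5, to between 243 and 286 FPKM in the anti-PD-1 group and to between 182 and 214 FPKM in the vehicle group. The tumours with the highest sums, combination replicates 3 and 5, also had the highest Cdkn1a, Ccng1, Trp53inp1 and Bax and the lowest Phlda3 and Eda2r. T cell markers summed to between 37.1 and 132 FPKM in the combination group, 26.7 to 38.8 FPKM in the anti-PD-1 group and 11.9 to 24.7 FPKM in the vehicle group. Macrophage markers summed to between 1885 and 4456 FPKM in the combination group, 1845 to 2210 FPKM in the anti-PD-1 group and 1269 to 1637 FPKM in the vehicle group. B cell markers stayed low, at no more than 6.27 FPKM in sum. Skeletal muscle markers summed to between 0.696 and 156 FPKM in the combination group. Their sum was 28.0 to 145 FPKM in the anti-PD-1 group and 0.840 to 175 FPKM in the vehicle group. Adipocyte markers summed to 21.8 to 272, 45.3 to 265 and 5.78 to 206 FPKM in the same order of groups. No muscle or adipocyte marker that was tested passed by limma against vehicle, and their part in the results was not tested.

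With the mean log2 level of the pan-leukocyte markers as a covariate in limma, 1008 of 11311 genes passed for the combination against vehicle. Mdm2 was the single member still past the threshold in that fit (0.36, adjusted p = 0.0274). Under that covariate Cdkn1a was at 0.22 (adjusted p = 0.271), Pmaip1 at 0.17 (0.563), Trp53inp1 at -0.10 (0.759) and Bax at -0.03 (0.895). Ccng1 was at -0.17 (0.137), Eda2r at 0.25 (0.269), Fas at -0.27 (0.260), Bbc3 at 0.28 (0.160) and Phlda3 at 0.37 (0.0782). For anti-PD-1 against vehicle 1304 of 11311 genes passed with the covariate. Among the members it left Mdm2 past the threshold (0.27, limma adjusted p = 0.0187) and brought Phlda3 past it (0.32, 0.0362). Since the pan-leukocyte markers were themselves higher in the combination group, leukocyte level and treatment cannot be fully told apart in this fit. Without combination replicates 3 and 5 the 3 remaining combination tumours gave 4 member calls against vehicle, where 3179 of 11311 genes passed. These 4 were Cdkn1a (0.49), Mdm2 (0.33), Pmaip1 (0.53) and Trp53inp1 (0.52), while Bax lost its call (0.09, adjusted p = 0.299).

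**Figure D3:**
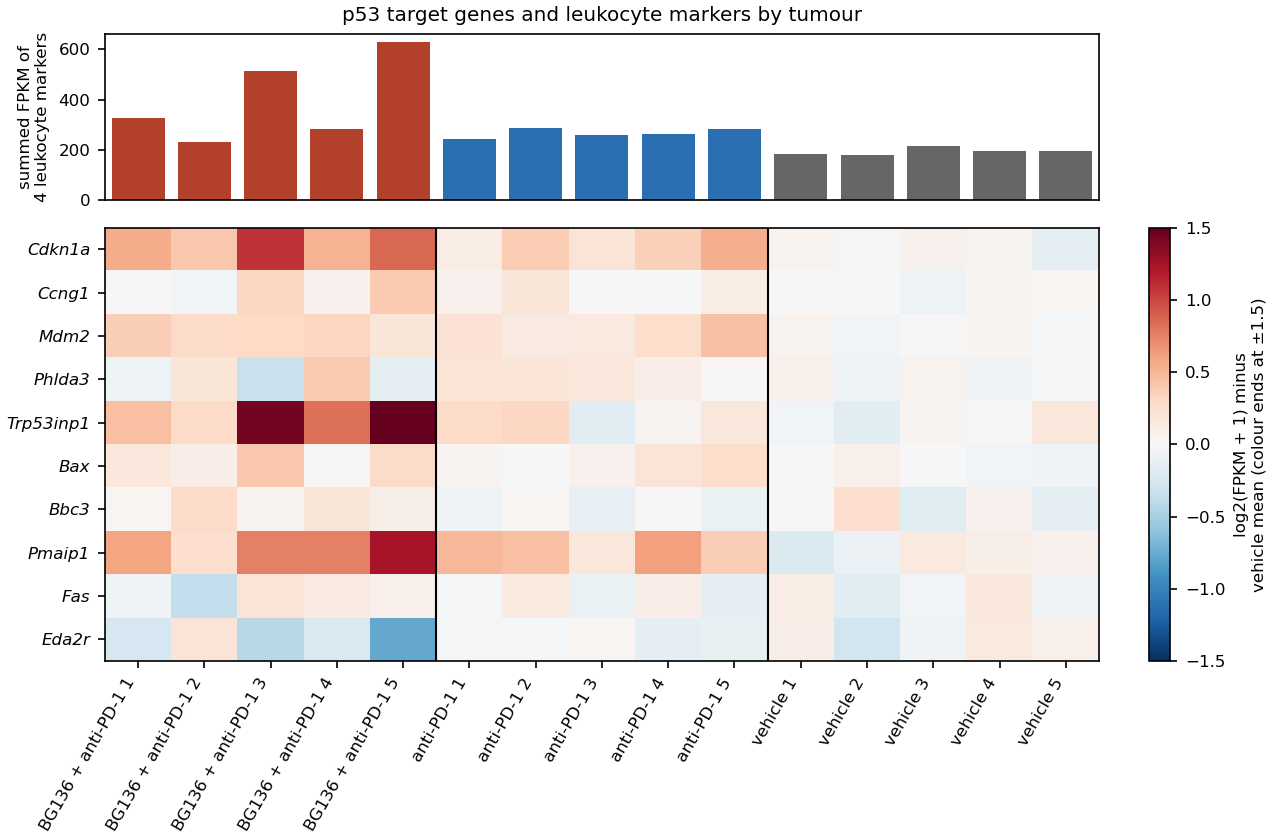
Top, summed FPKM of 4 pan-leukocyte markers in each of the 15 tumours. Below, log2(FPKM + 1) of each p53 target gene minus the vehicle mean, in colour, for the same tumours (combination, anti-PD-1, vehicle from left to right). Combination replicates 3 and 5 have the highest bars, 515 and 631 FPKM, and the deepest red for Cdkn1a and Trp53inp1.

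Within groups the 10 genes did not vary as a block. Over the 15 libraries, with group means subtracted, 21 of the 45 pairs had a Pearson correlation above 0 and the median was -0.11. Ccng1 and Trp53inp1 followed each other most closely (r = 0.93), then Cdkn1a and Bax (0.82) and Pmaip1 and Trp53inp1 (0.81). Phlda3 ran opposite to Bax (-0.85) and to Cdkn1a (-0.73), and Eda2r opposite to Pmaip1 (-0.75). These are descriptions over n = 15 libraries, in each of which all 10 genes share that library's depth and cell content. Without those 2 libraries 24 of 45 pairs were above 0 with a median of 0.05, Ccng1 and Trp53inp1 were at 0.67, Cdkn1a and Bax at 0.55, and Cdkn1a and Phlda3 at -0.27. Several signs turned: Phlda3 was then at 0.44 with Trp53inp1, 0.35 with Fas, 0.12 with Ccng1 and 0.10 with Pmaip1. Bax was at -0.44 with Trp53inp1, -0.43 with Fas, -0.33 with Ccng1 and -0.12 with Pmaip1. Mdm2, which was at 0.16 with Cdkn1a and 0.24 with Bax over all libraries, was at 0.67 and 0.70 with them over these 13 libraries.

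**Figure D4:**
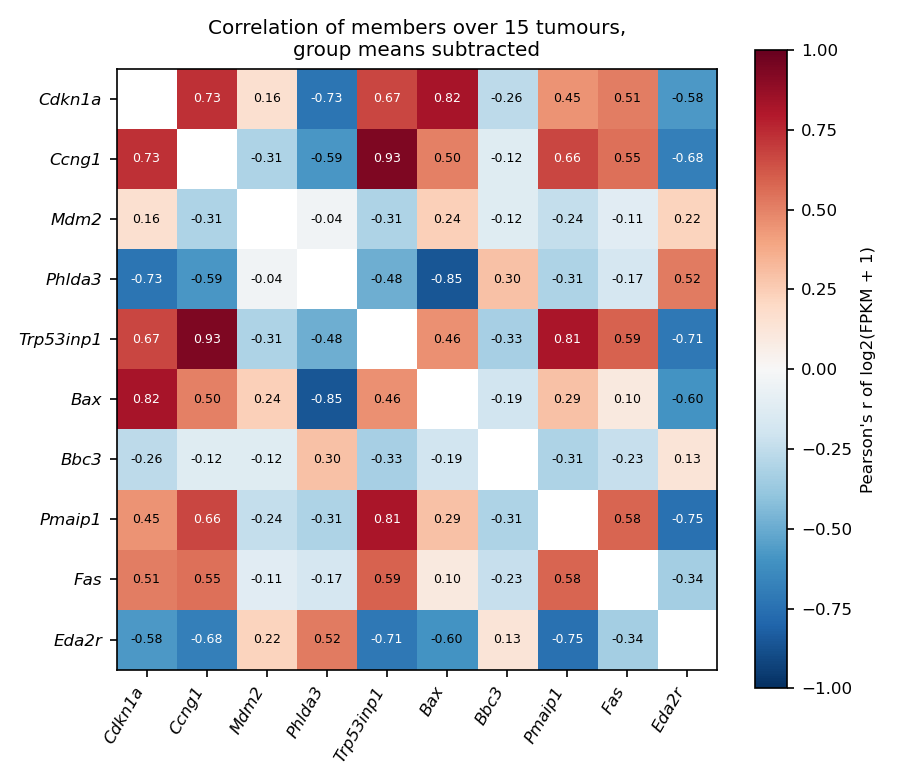
Pearson correlation of log2(FPKM + 1) between each pair of p53 target genes over 15 tumours after the group means were subtracted, red for positive and blue for negative. Over all 15 tumours Cdkn1a, Ccng1, Trp53inp1, Bax, Pmaip1 and Fas have positive values with each other and Phlda3 and Eda2r negative values with all of them, a pattern that without combination replicates 3 and 5 did not hold for several pairs of Bax and Phlda3.

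By the same measure the tested genes most like Cdkn1a were M6pr, which encodes a mannose 6-phosphate receptor that sorts lysosomal enzymes (r = 0.94), the predicted gene Gm4070 (0.93) and Ctsc, which encodes the lysosomal protease cathepsin C (0.93). Those most like Phlda3 were Edf1, a transcriptional coactivator and ribosome-associated factor (0.94), 2310039H08Rik (0.93) and Fdx1, ferredoxin 1 (0.92). None of these 6 belongs to the lists of p53 targets used here. Those lists hold only 10 and 24 genes, while the 6 were picked for the highest r among 11311 tested genes. Their absence from such short lists therefore says nothing about p53. The r values are over all 15 libraries. How far they rest on the combination tumours with the highest leukocyte sums was not tested.

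The genes that act on or beside these targets were counted in lists. In the combination group against vehicle, 22 of 24 other p53 targets were tested, and 6 rose and 5 fell, beside 16.6% and 23.9% of all genes, with a median log2 change of 0.02 beside -0.05 over all genes. Ephx1, which encodes microsomal epoxide hydrolase, had 2.99, 2.72, 4.64, 3.80 and 8.08 FPKM in the combination tumours, against 0.484, 0.935, 1.29, 1.42 and 0.666 FPKM in the vehicle tumours, and rose by 1.42 ± 0.25 (limma adjusted p = 7.50e-04). The groups were separated, with combination replicate 5 highest. Plk3, a stress-activated polo-like kinase, rose by 0.38 ± 0.08 (limma adjusted p = 0.00177). Btg2, Dram1, Polk and Gadd45a also rose, while Tnfrsf10b, Ei24, Apaf1, Rrm2b and Xpc fell. With anti-PD-1 alone 0 of the 22 passed by limma, beside 5.55% of all genes, and 3 had an unadjusted p under 0.05, beside 23.0% of all genes.

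Of p53 itself and its regulators 13 of 15 were tested, and 0 rose and 4 fell in the combination group, beside 16.6% and 23.9% of all genes (median -0.07, beside -0.05 over all genes). Trp53 had 39.7, 39.3, 38.5, 31.3 and 35.6 FPKM in the combination tumours and 41.3, 42.1, 41.4, 41.0 and 40.7 FPKM in the vehicle tumours. All combination tumours lay below the vehicle range, and Trp53 fell by 0.16 on the log2 scale (limma adjusted p = 0.0337). The call ended without vehicle replicate 1, 2, 3, 4 or 5 (adjusted p of 0.0574, 0.0659, 0.0602, 0.0539 and 0.0520), without combination replicate 4 or 5 (0.0541 and 0.0626), without combination replicates 3 and 5 (0.0673), with the compared groups alone (0.0748) and with median-ratio scaling (0.0832). Rfwd2, listed today as Cop1 and encoding another ubiquitin ligase of p53, fell by 0.34 on the log2 scale (limma adjusted p = 5.23e-04). Atr, a kinase of the DNA damage response upstream of p53, fell by 0.19 on the log2 scale (adjusted p = 0.0286), and Atm was the fourth to fall. The call of Atr ended without vehicle replicate 1, 3 or 4 (0.0542, 0.0522 and 0.0662) and without combination replicates 3 and 5 (-0.12, 0.0913), and with the compared groups alone (0.0702). Mdm4, which inhibits p53 alongside Mdm2, had a change of 0.09 ± 0.06 (limma adjusted p = 0.223). With anti-PD-1 alone 0 of the 13 passed by limma (5.55% of all genes did), and 1 had an unadjusted p under 0.05 (23.0% of all genes did).

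Of the BCL-2 family and caspases 16 of 18 were tested, and 3 rose and 3 fell in the combination group, beside 16.6% and 23.9% of all genes (median 0.04). The anti-apoptotic genes Mcl1 and Bcl2l1 (BCL-XL) rose with Bok, while Diablo and Bad were among those that fell. Bcl2l1 had 8.12, 7.75, 7.997, 7.96 and 8.28 FPKM in the combination tumours and 6.88, 6.53, 6.69, 6.42 and 6.52 FPKM in the vehicle tumours. The groups did not overlap, and Bcl2l1 rose by 0.25 ± 0.04 (limma adjusted p = 5.40e-04). It also passed with anti-PD-1 alone, at 0.17 (adjusted p = 0.0290). That call ended without vehicle replicate 2, 3, 4 or 5 (0.0592, 0.0638, 0.0607 and 0.0748), without anti-PD-1 replicate 1, 4 or 5 (0.0540, 0.0676 and 0.0851), with quantile scaling (0.0589) and with the pan-leukocyte covariate (0.15, 0.0533).

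The balance of Bax over the anti-apoptotic gene Bcl2 was taken as log2(Bax + 1) minus log2(Bcl2 + 1) in each tumour. It was 1.92, 1.97, 2.25, 1.74 and 2.23 in the combination tumours, 1.79, 1.67, 1.89, 2.06 and 1.91 in the anti-PD-1 tumours and 1.79, 1.71, 1.54, 1.68 and 1.76 in the vehicle tumours. Of the combination tumours replicate 4 lay within the vehicle range, and of the anti-PD-1 tumours replicates 1 and 2 did. The combination exceeded vehicle by 0.327 (exact two-sided permutation p = 0.0238, adjusted over 3 comparisons 0.0714), where the smallest p that 5 against 5 allows is 0.00794. Anti-PD-1 exceeded vehicle by 0.168 (exact permutation p = 0.0794, adjusted 0.119), and the combination exceeded anti-PD-1 by 0.159 (exact permutation p = 0.198, adjusted 0.198). Without combination replicates 3 and 5 the combination exceeded vehicle by 0.182 (exact permutation adjusted p = 0.119) and anti-PD-1 by 0.0136 (0.875). The difference from vehicle passed without combination replicate 4 (0.398, exact permutation adjusted p = 0.0238) and, for anti-PD-1, without anti-PD-1 replicate 2 (0.216, 0.0357).

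Of the partners of Fas, Eda2r and related receptors 6 of 9 were tested, and 3 rose and 1 fell in the combination group, beside 16.6% and 23.9% of all genes (median 0.11). Fasl, the ligand of Fas, had 2.42, 1.54, 2.95, 2.61 and 6.62 FPKM in the combination tumours and 0.921, 0.684, 1.32, 0.988 and 1.26 FPKM in the vehicle tumours. All combination tumours were above the vehicle range, and Fasl rose by 0.96 ± 0.22 (limma adjusted p = 0.00352), while Fas itself did not pass. Fasl is made mainly by activated T and natural killer cells. With the pan-leukocyte covariate in the limma fit the change of Fasl was 0.04 (adjusted p = 0.924). The leukocyte markers were themselves higher in the combination group, so leukocyte level and treatment cannot be fully told apart here. Ripk1, a kinase of receptor complexes, rose by 0.31 ± 0.06 (limma adjusted p = 0.00109), and Cflar also rose. Casp8, the initiator caspase of death receptors such as Fas, fell by 0.33 on the log2 scale (limma adjusted p = 2.39e-04), and also passed with anti-PD-1 alone (-0.22, adjusted p = 0.0205). That second call ended without vehicle replicate 3 or 5 (0.0615 and 0.0632) and without anti-PD-1 replicate 1 or 5 (0.0500047 and 0.0599). Eda, whose product includes the ligand of Eda2r, was below the filter, with 0.433 to 0.901 FPKM in the combination group, 0.567 to 0.804 FPKM in the anti-PD-1 group and 0.734 to 1.14 FPKM in the vehicle group.

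The cell cycle genes downstream and beside p21 were counted too. All 13 G1 cyclins, cyclin-dependent kinases and inhibitors were tested, and 1 rose and 4 fell in the combination group, beside 16.6% and 23.9% of all genes (median -0.16). Cdkn2b, which encodes the inhibitor p15, had 13.3, 15.3, 8.38, 13.4 and 4.42 FPKM in the combination tumours and 26.6, 30.5, 27.1, 24.6 and 29.9 FPKM in the vehicle tumours. The groups did not overlap, and Cdkn2b fell by 1.37 on the log2 scale (limma adjusted p = 4.93e-04), opposite in direction to Cdkn1a. Cdk4, a kinase that p15 inhibits, fell by 0.36 on the log2 scale (limma adjusted p = 0.00406), Cdkn1c and Ccnd3 also fell, and Ccnd1 rose. Of 19 cell cycle genes 0 rose and 0 fell by limma in the combination group (1 at an unadjusted p under 0.05, Plk1, beside 49.8% of all genes), with a median of -0.05. The proliferation marker Mki67 had 25.6, 29.8, 20.9, 18.7 and 21.8 FPKM in the combination tumours and 24.6, 26.3, 26.4, 26.1 and 24.6 FPKM in the vehicle tumours, a change of -0.14 ± 0.09 (limma adjusted p = 0.216). The groups overlapped, with 3 combination tumours below all vehicle tumours and 1 above them. Without combination replicate 2 Mki67 passed (-0.23, adjusted p = 0.0129), as did Plk1 (-0.28, 0.00802) and Cdc20 (-0.26, 0.0183), a kinase and an activator of the ubiquitin ligase that drive cells through mitosis. Plk1 also passed without vehicle replicate 1 or 5 (0.0453 and 0.0417) or combination replicate 1 (0.0406).

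With the pan-leukocyte covariate several of these calls against vehicle ended: Ephx1 was at 0.60, adjusted p = 0.263, Cdkn2b at -0.29, adjusted p = 0.232, Cdk4 at -0.03, adjusted p = 0.876, Plk3 at 0.24, adjusted p = 0.215, Ripk1 at 0.10, adjusted p = 0.385, Rfwd2 at -0.24, adjusted p = 0.0976, Trp53 at -0.16, adjusted p = 0.29, Bcl2l1 at 0.21, adjusted p = 0.0665 and Atr at 0.01, adjusted p = 0.968. Casp8 kept its call (-0.35, adjusted p = 0.0173).

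**Figure D5:**
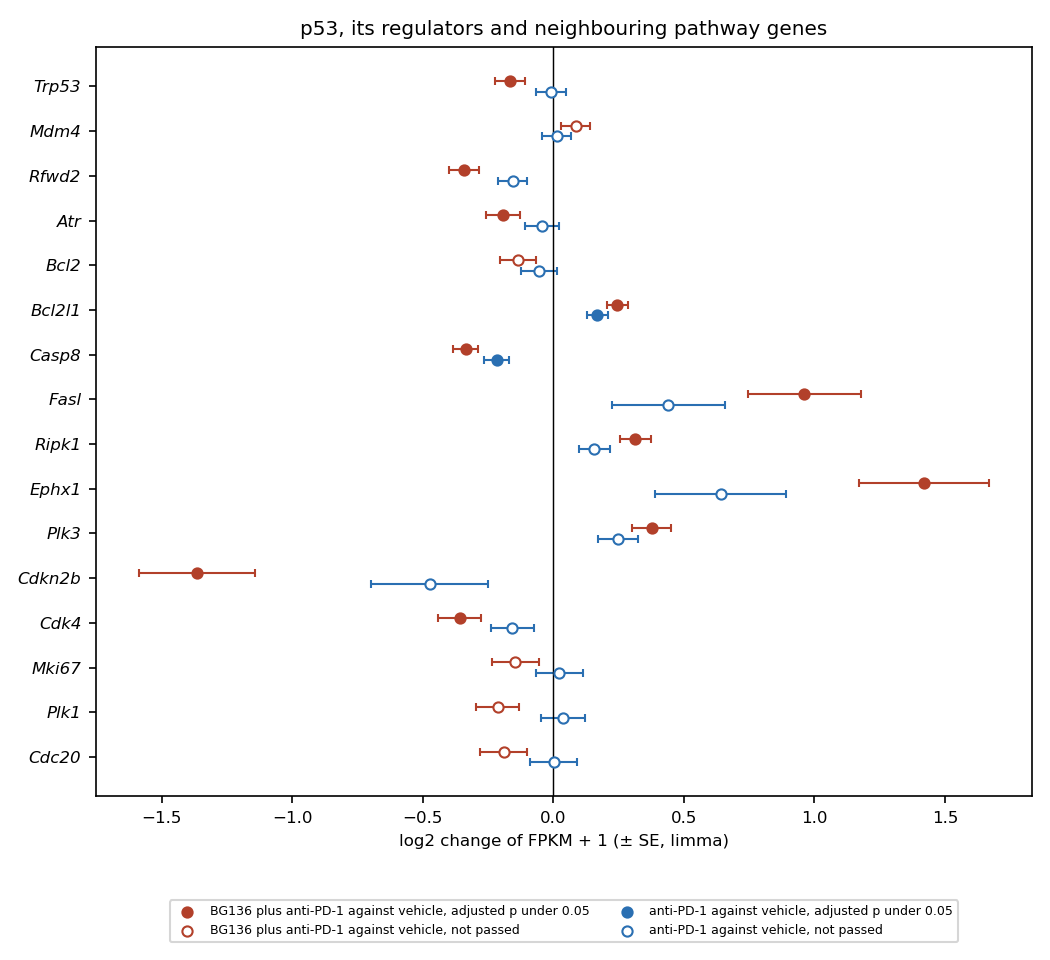
Log2 change of FPKM + 1 (horizontal axis, ± SE from limma) for genes around the p53 targets, in red for combination against vehicle and in blue for anti-PD-1 against vehicle, filled where the adjusted p was under 0.05. Cdkn2b lies farthest to the left and Ephx1 farthest to the right, and for anti-PD-1 only Bcl2l1 and Casp8 are filled.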

How the data were processed

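Gene expression was measured by stranded mRNA sequencing of 15 tumour libraries, grouped by the treatment in their titles. The authors deposited 1 table whose header calls the values only expression. They were read as FPKM because of their range and because Cufflinks is among the tools in the submitters' processing notes, which also name Trimmomatic, HISAT2, HTSeq, DESeq and the build GRCm39, without versions or roles. No read counts were used here. Depth relative to vehicle replicate 1, from the spacing of low values, was 0.835 to 1.07, with an unclear spacing in combination replicate 4. Of 21878 rows, 27 whose symbols had become dates were left out (0.168% of the FPKM in a library, or less).

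A gene was tested if 5 or more libraries had 1 FPKM or more. Tests used limma 3.58.1 (R 4.3.3) on log2(FPKM + 1), with 1 mean per group for the 3 groups, all 15 libraries in the fit and a trended eBayes step, two-sided, with Benjamini-Hochberg adjustment within each of 3 comparisons at 0.05. The fit was tested on simulated data. Fold changes on this scale understate those of low genes. The Bax and Bcl2 difference was tested by exact permutation. Log2 changes carry SE, FPKM means SD. The members and gene lists were chosen with earlier results of these data known, so no list was tested and no p was adjusted over a list. Named genes were all members, the 2 genes of smallest p in each pathway list, Trp53, Mdm4, Bcl2, Fasl, Eda and Mki67, and the 3 genes most correlated with Cdkn1a and with Phlda3; other list genes are named after their values were seen. The result of 1 named gene is not reported here. Promoter sequences are from RefSeq on GRCm38.p6, an earlier build than the authors', and were searched for the p53 consensus 10-base motif on both strands. Column names carry prefixes that the sources do not explain, and these were not used as batches. Alternatives were other pseudocounts, no filter, 2 scalings, fits of 2 groups alone, group weights, a replicate block, a leukocyte covariate and omission of libraries.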

Additional observations from a re-analysis of the deposited data

How the results depend on the processing

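Against vehicle, the combination call of Mdm2 held in 20 of 20 alternatives and those of Cdkn1a, Pmaip1 and Trp53inp1 in 19 of 20, with the leukocyte covariate as the exception, while Bax passed in 7 of 20. The number of members past the threshold lay between 4 and 7 when single libraries were left out and was 1 with the covariate. The number of genes lay between 3728 and 5201 when single libraries were left out and was 1008 with the covariate. The share of called genes that were higher was 40.9%, 49.0% with median-ratio scaling and 37.4% with quantile scaling. The median log2 change over all genes was -0.05, -0.02 and -0.07 in the same order.

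For anti-PD-1 against vehicle the number of genes was 2100 with those groups fitted alone, 2269 with weights per group, 1304 with the covariate, 347 with the replicate block and between 223 and 646 without single libraries. The members past the threshold were 3, 3, 2 and 0 in the same order and 0 to 1 without single libraries. The share of called genes that were higher was 39.8%, 34.9% with median-ratio scaling and 29.5% with quantile scaling.

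For the combination against anti-PD-1 the number of genes was 0 with median-ratio scaling, quantile scaling, those groups alone, weights per group, the replicate block, the covariate, and without combination replicates 3 and 5, and lay between 0 and 2222 without single libraries. Members past the threshold lay between 0 and 4.

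The Bax to Bcl2 difference passed with quantile scaling for the combination (0.391, exact permutation adjusted p = 0.0238) and anti-PD-1 (0.186, 0.0357) against vehicle, and without combination replicate 4 and anti-PD-1 replicate 2. Without combination replicates 3 and 5 it was 0.182 against vehicle and 0.0136 against anti-PD-1. Without single libraries it lay between 0.270 and 0.398, between 0.120 and 0.216, and, for the combination against anti-PD-1, between 0.102 and 0.230.

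Directions turned round as follows, and the cause was not tested. With the covariate, against vehicle, the combination changes were -0.0265 for Bax, -0.173 for Ccng1, -0.102 for Trp53inp1, 0.250 for Eda2r, 0.0486 for Mki67, 0.00757 for Atr, 0.0229 for Plk1 and 0.153 for Cdc20. The anti-PD-1 changes were 0.0185 for Bbc3, -0.0823 for Ccng1, -0.389 for Trp53inp1 and 0.212 for Eda2r. For the combination against anti-PD-1 they were -0.0328 for Bax, -0.0906 for Ccng1, 0.0559 for Phlda3 and 0.0383 for Eda2r. Without combination replicates 3 and 5, Bax was at -0.0239, Ccng1 at -0.0621 and Phlda3 at 0.0290 against anti-PD-1. The change of Fas was 0.0155 against vehicle and 0.0245 against anti-PD-1 with median-ratio scaling, and 7.5e-05 against anti-PD-1 with a pseudocount of 5. Without single libraries, Fas ranged from -0.0578 to 0.0809 and Phlda3 from -0.0920 to 0.0881 for the combination against vehicle, Fas from -0.0538 to 0.0848 for the combination against anti-PD-1, and Fas from -0.0469 to 0.0349 and Bbc3 from -0.0975 to 0.00861 for anti-PD-1 against vehicle.

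No pairing of tumours by replicate number was seen: over 15 same-numbered pairs the correlation of deviations from the group means lay between -0.39 and 0.29, with 2 above 0.1, and 1 of 15 libraries correlated best with its own number. Such correlations cannot decide whether same-numbered tumours were handled together, and the titles give only the number. Among the members the block ended the calls of Bax in the combination group (adjusted p = 0.0624) and of Mdm2 with anti-PD-1 (0.0615). Among the other named genes it ended those of Trp53 in the combination group (0.0617) and of Bcl2l1 and Casp8 with anti-PD-1 (0.0644 and 0.0554), and Cdc20 passed under it (0.0385). Read depth is unknown, so values of the lowest members, Pmaip1, Trp53inp1 and Fas, carry no counting interval.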

Other observations

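With anti-PD-1 alone, set against vehicle, 18 of 19 cell cycle genes had a positive log2 change, beside 5832 of all 11311 genes. Their median was 0.12 beside 0.01 over all genes, and in 8 of 19 every anti-PD-1 tumour was above every vehicle tumour, beside 7.09% of all genes. By limma 1 of the 19 passed, beside 5.55% of all genes (2.21% higher), so calls were no more common in this list. It was Rrm2, a ribonucleotide reductase subunit needed for DNA synthesis. Rrm2 had 115, 109, 124, 125 and 132 FPKM in the anti-PD-1 tumours and 86.7, 93.4, 98.1, 101 and 102 FPKM in the vehicle tumours, a rise of 0.33 ± 0.09 (limma adjusted p = 0.0442). Ccnd1, cyclin D1, the partner of Cdk4, had 200, 198, 177, 200 and 228 FPKM in the anti-PD-1 tumours and 152, 143, 133, 147 and 121 FPKM in the vehicle tumours, a rise of 0.52 ± 0.09 (limma adjusted p = 0.00664). In the combination tumours Ccnd1 had 200, 188, 170, 193 and 144 FPKM, where replicate 5 fell within the vehicle range. Rrm2 and Ccnd1 were chosen after their values were seen.

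Set against anti-PD-1, all 19 cell cycle genes were lower in the combination group, as were 7123 of all 11311 genes. Their median was -0.19 beside -0.05 over all genes. This comparison and the one with vehicle share the same anti-PD-1 tumours, so the 2 observations are not independent. None passed by limma (0 of 19), and 11 had an unadjusted p under 0.05, beside 28.2% of all genes.

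The p53 target Gdf15, a secreted stress cytokine that was below the filter and chosen after its values were seen, had 0.909, 0.337, 2.37, 1.63 and 2.42 FPKM in the combination tumours and 0.349 to 0.843 FPKM in the vehicle tumours.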
